A study of Mus musculus with 6 samples.

Results

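The elastic fibre genes described here were *Eln*, *Fbn1*, *Fbn2*, *Mfap4*, *Mfap5*, *Fbln1*, *Fbln5*, *Efemp2*, *Lox* and *Loxl1*, 10 genes taken by symbol from the 23997 genes of the deposited table. The rule that groups them uses the role of their products and no measured value. The 10 genes were nevertheless chosen with earlier results of these data known, as were the further lists and the tests. RNA was sequenced in bulk from the ductus arteriosus (DA), the fetal vessel that joins the pulmonary artery to the aorta, from untreated C57BL/6 embryos at E17.5. Of the 6 libraries, 3 came from wild-type littermates (WT 0, WT 1 and WT 2) and 3 from *Prdm6f/f; SM22-Cre* embryos, labelled KO (KO 0, KO 1 and KO 2). The KO mice carried both floxed *Prdm6* alleles and a Cre transgene driven by the *SM22* promoter, which directs excision to smooth muscle cells (SMCs). Whether excision also took place in other cells of the tissue was not measured here. Whether the WT littermates carried Cre or a floxed allele was not given in the sources used here, nor was whether a library came from 1 embryo or from a pool. The comparison asks how the transcripts of the elastic matrix stand in a DA whose SMCs were meant to lose *Prdm6*, a transcriptional regulator of the PRDM family.

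Elastic fibres give arteries their recoil. SMCs secrete tropoelastin, the product of *Eln*, which is laid on a scaffold of fibrillin microfibrils with the help of fibulins and is then crosslinked by lysyl oxidases into insoluble elastin. The DA forms fewer and more interrupted elastic laminae than the neighbouring great arteries, and it closes after birth, whereas those arteries remain patent.

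Several properties of the libraries bear on every value below. The relative depth, read from the step size of the lowest values, ranged only from 0.933 to 1.20 times that of WT 1. The number of genes listed at 0 ranged more widely, from 8338 in KO 2 to 11886 in WT 2, and the cause was not tested. *Prdm6* itself was at 41.7, 48.4 and 19.8 FPKM (fragments scaled to transcript length and to the reads mapped in the library) in the WT libraries and at 48.6, 27.1 and 15.4 FPKM in the libraries labelled KO. The groups overlapped, with a log2 fold change of -0.32 (SE 0.48, adjusted p = 0.833, limma), and a gene-level value also counts the exons that Cre does not remove. The direction of every comparison therefore rests on the labels. KO 0 held both the female transcript *Xist* (81.0 FPKM) and the Y-linked *Ddx3y* (26.4 FPKM), while each other library held 1 of them and at most 0.383 FPKM of the other. WT 1 and KO 2 stood apart in heart muscle transcripts, and values without them are given beside several results.

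None of the 10 genes passed the test across all genes (limma, adjusted p under 0.05), which 1 gene of 12955 tested did, or 0.00772%. At an unadjusted p under 0.05, 2 of the 10 were lower in KO, against 4.97% of all genes tested. The 3 genes *Fbn1*, *Loxl1* and *Mfap4* were lower in every KO library than in any WT library, against 7.84% of all genes. The log2 fold change was below 0 for 9 of the 10, against 44.4% of all genes. Its median over the 10 was -0.36, against 0.07 over all genes tested. Among the 9122 genes with a mean of at least 5 FPKM, 48.8% had a log2 fold change below 0. Their median was 0.014, and 9.61% of them were lower with no overlap. The lowest value of any of the 10 in any library was 27.2 FPKM, and none was removed by the filter on low values. Nothing in the labels says that the libraries are separate animals, so p-values measure the spread between these libraries, which may in part be technical.

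**Figure D1:**
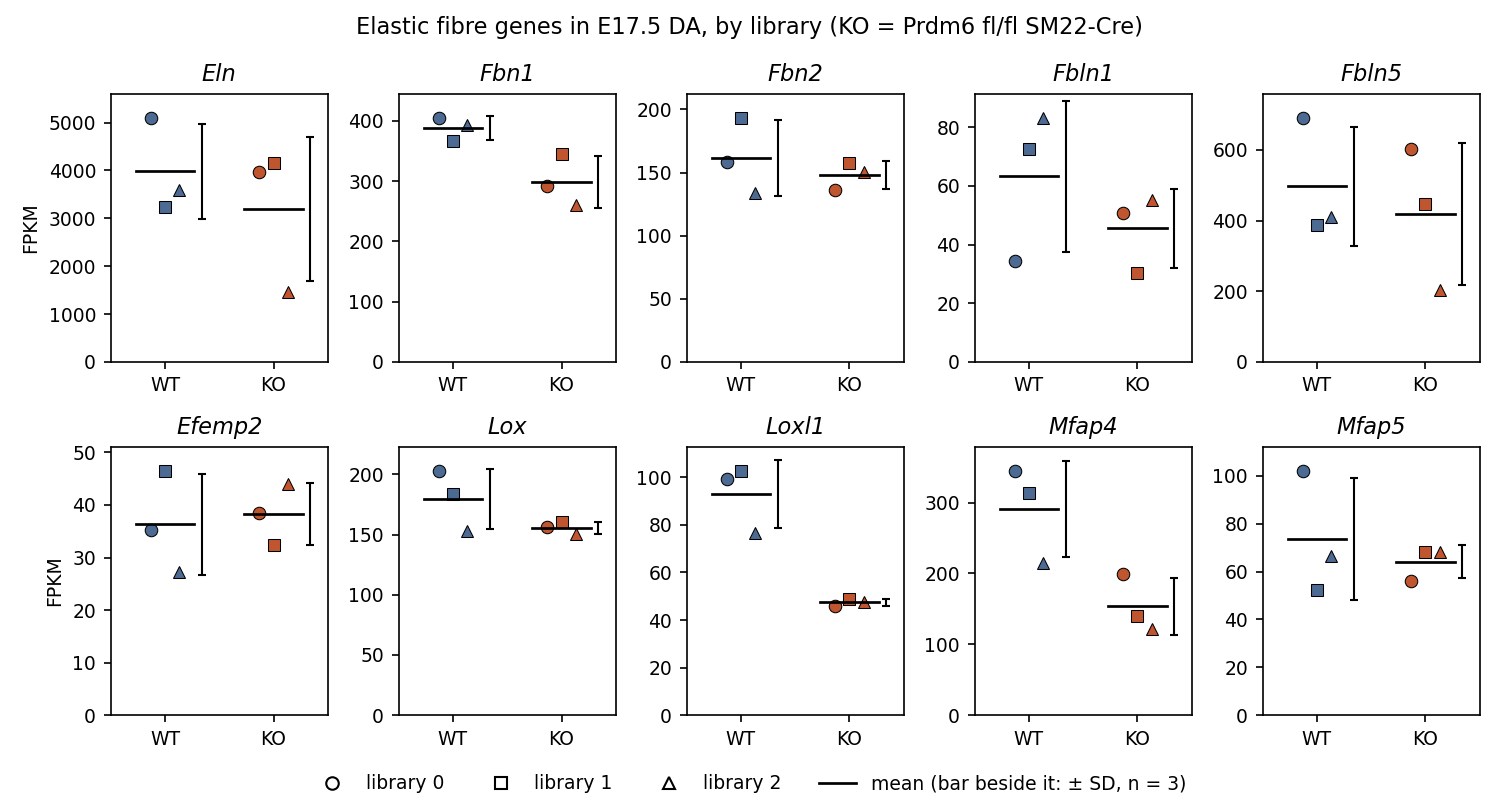
FPKM of each elastic fibre gene (vertical axes, from 0) in the 3 WT and 3 KO libraries, with marker shapes for library numbers, a line for the mean and a bar for the SD (n = 3). *Loxl1*, *Mfap4* and *Fbn1* separated the groups, with the 3 KO libraries of *Loxl1* between 46.1 and 49.0 FPKM, while *Eln* and *Fbln5* had a lowest value in KO 2 and overlapped.

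*Eln* (chr5:134702593-134747323 on GRCm38, minus strand, 37 exons in its longest annotated transcript) encodes tropoelastin, the bulk of the fibre. Per length, it was the most abundant of the 10 and ranked 10 among all genes by mean FPKM. It was at 5099, 3241 and 3601 FPKM in WT 0, WT 1 and WT 2, and at 3963, 4149.95 and 1464.5 FPKM in KO 0, KO 1 and KO 2. KO 0 and KO 1 lay inside the WT range, and KO 2 alone lay under it. The mean was 3980.5 ± 985 FPKM in WT and 3192 ± 1499 FPKM in KO (SD, n = 3), a log2 fold change of -0.44 (SE 0.47, 95% interval -1.53 to 0.66, adjusted p = 0.778, limma). The exact permutation p was 0.6, where 3 libraries against 3 cannot go below 0.1. Without KO 2 the log2 fold change was 0.055. *Eln* supplied 65.4% to 71.1% of the summed FPKM of the 10 genes in WT and 57.1% to 74.4% in KO, with the lowest share in KO 2.

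The fibrillins form the microfibril on which tropoelastin is deposited. *Fbn1* (chr2:125300594-125507993, minus strand, 65 exons) encodes fibrillin-1, the main fibrillin of the vessel wall. It was at 405, 366 and 394 FPKM in WT and at 292, 345 and 259.7 FPKM in KO. The highest KO library lay 20.5 FPKM under the lowest WT library. The means were 388 ± 20.1 and 299 ± 43.2 FPKM (SD, n = 3), and the log2 fold change of -0.39 (SE 0.17, 95% interval -0.79 to 0.02) did not pass the test (adjusted p = 0.609, limma, exact permutation p = 0.1). *Fbn2* encodes fibrillin-2, the fibrillin made mostly before birth. It was at 159, 193 and 134 FPKM in WT and at 136, 157 and 151 FPKM in KO. Every KO library of *Fbn2* lay inside the WT range, with a log2 fold change of -0.11 (95% interval -0.54 to 0.31, adjusted p = 0.845, limma).

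*Mfap4* and *Mfap5* encode microfibril-associated proteins. *Mfap4* (chr11:61485431-61488900, plus strand, 6 exons) codes for a fibrinogen-domain protein that binds fibrillin, elastin and integrins. It was at 344, 313 and 214 FPKM in WT and at 199, 140 and 122 FPKM in KO. The groups did not overlap, although KO 0 came within 14.9 FPKM of WT 2. The KO mean of 154 ± 40.3 FPKM was 53.0% of the WT mean of 290 ± 68.0 FPKM (SD, n = 3), a log2 fold change of -0.92 (SE 0.26, 95% interval -1.51 to -0.33, unadjusted p = 0.00757, adjusted p = 0.502, limma, exact permutation p = 0.1). An opposite-strand neighbour, *Mapk7*, shares 4.63% of the exon bases of *Mfap4*, and it was at only 9.69 to 14.1 FPKM. *Mfap5* (chr6:122505845-122529290, plus strand) encodes MAGP-2, a small protein that lies on the microfibril. It was at 102, 52.2 and 66.5 FPKM in WT and at 56.0, 68.2 and 68.1 FPKM in KO. The KO values lay inside the WT range, and the log2 fold change was -0.15 (95% interval -0.74 to 0.45, adjusted p = 0.859, limma). It was 0.12 without WT 0, the library with the highest value.

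The fibulins link tropoelastin to the microfibril and to the enzymes that crosslink it. *Fbln5* (chr12:101746565-101819055, minus strand, 11 exons) encodes fibulin-5, which binds tropoelastin, LOXL1 and integrins, and *Efemp2* (chr19:5473954-5482517, plus strand, 11 exons) encodes fibulin-4, which brings LOX to tropoelastin. Mice lacking either protein form defective elastic fibres. Over the 6 libraries the log2 values of these transcripts had a Pearson r of -0.369, and their ratio did not separate the groups. The 250 bases before their upstream start sites are printed below, 5′ to 3′ on the coding strand from RefSeq (GRCm38.p6). Each match to the GC box GGGCGG on either strand is in capitals. A link between these sequences and the values was not tested. The *Fbln5* window is chr12:101819120-101819369 on the minus strand, and the *Efemp2* window is chr19:5473696-5473945 on the plus strand.
Fbln5: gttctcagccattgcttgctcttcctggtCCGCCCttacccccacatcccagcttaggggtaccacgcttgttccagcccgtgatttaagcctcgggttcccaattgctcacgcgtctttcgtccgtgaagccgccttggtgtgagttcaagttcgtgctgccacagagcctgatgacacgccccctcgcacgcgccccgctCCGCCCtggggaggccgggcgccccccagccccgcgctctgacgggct
Efemp2: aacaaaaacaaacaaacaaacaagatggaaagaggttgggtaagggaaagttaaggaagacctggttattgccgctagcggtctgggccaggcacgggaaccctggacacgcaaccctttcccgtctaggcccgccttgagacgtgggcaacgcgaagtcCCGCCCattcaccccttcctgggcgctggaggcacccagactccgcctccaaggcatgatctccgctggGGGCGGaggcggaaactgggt
Neither window overlapped an annotated exon. The windows held 65.2% and 59.2% G and C, against a median of 52.4% over 32851 promoters, and each held 2 GC boxes. A GC box stood in 32.7% of all promoters. Neither held a TATA box (TATAAA, in 12.4% of promoters), an MCAT element (CATTCC, in 12.6%) or a CArG box, the element bound by serum response factor (in 1.47%), on either strand. Windows at the other start sites of these genes overlapped annotated exons and are not printed. Those of *Efemp2* held 75.6% and 78.8% G and C and 5 GC boxes each. That of *Fbln5* held 49.6% G and C and 0 GC boxes. These are matches of letters and no evidence of binding, and a motif outside the window would not be seen. Promoters of 4 of the 10 genes were matched.

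*Fbln5* was at 690 FPKM in WT 0, at 388 FPKM in WT 1 and at 411 FPKM in WT 2. In KO 0, KO 1 and KO 2 it was at 603, 447 and 204 FPKM. As for *Eln*, the highest value was in WT 0, KO 0 and KO 1 lay inside the WT range, and KO 2 was lowest. The means were 497 ± 168 and 418 ± 201 FPKM (SD, n = 3), and the log2 fold change was -0.34 (95% interval -1.31 to 0.63, adjusted p = 0.804, limma). Without KO 2 it was 0.11. *Efemp2* was lower than *Fbln5* in every library, at 35.2, 46.4 and 27.2 FPKM in WT and at 38.4, 32.4 and 44.1 FPKM in KO. It was the single gene of the 10 with a log2 fold change above 0, at 0.10 (95% interval -0.46 to 0.66, adjusted p = 0.902, limma), and the groups overlapped. That value was -0.089 without WT 2 and -0.0064 without KO 2. The opposite-strand gene *Mus81*, at 5.72 to 11.3 FPKM, shares 4.57% of the exon bases of *Efemp2*.

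*Fbln1* (chr15:85205949-85286535, plus strand) encodes fibulin-1, a component of the elastic fibre core and of basement membranes. It was at 34.3, 72.5 and 83.2 FPKM in WT and at 50.8, 30.3 and 55.3 FPKM in KO. WT 0 was low, in contrast to its high *Eln* and *Fbln5*, and the groups overlapped. The log2 fold change was -0.43 (95% interval -1.30 to 0.45, adjusted p = 0.736, limma). It was -0.82 without WT 0, when the groups did not overlap (12.2% of all genes were then lower with no overlap). It was -0.28, -0.18 and -0.16 without WT 1, WT 2 and KO 1.

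Lysyl oxidases are copper-dependent enzymes that oxidise lysines of tropoelastin and collagens so that they crosslink. *Lox* encodes the founding enzyme, which acts on collagen and elastin. It was at 203, 184 and 153 FPKM in WT and at 156, 160.2 and 150.4 FPKM in KO. The KO libraries were close together (coefficient of variation 3.18%), and the 2 highest of them lay inside the WT range. The log2 fold change was -0.20 (SE 0.16, 95% interval -0.58 to 0.18, adjusted p = 0.726, limma).

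*Loxl1* (chr9:58287738-58313186, minus strand, 7 exons) encodes the lysyl oxidase that fibulin-5 tethers to elastic fibres, where it maintains elastin. It was at 99.5, 103 and 76.4 FPKM in WT and at 46.1, 49.0 and 47.6 FPKM in KO. The lowest WT library lay 27.4 FPKM above the highest KO library, and the KO libraries varied little (coefficient of variation 3.07%). The KO mean of 47.5 ± 1.46 FPKM was 51.2% of the WT mean of 92.8 ± 14.3 FPKM (SD, n = 3). The log2 fold change of -0.95 (SE 0.17, 95% interval -1.35 to -0.55) had the smallest unadjusted p of the 10 (0.000635) and did not pass after adjustment (adjusted p = 0.332, limma, exact permutation p = 0.1). It lay at percentile 6.13 of all genes tested, and at percentile 4.88 of the 3506 genes with a mean of at least 20 FPKM. *Loxl1* was the only gene of the 10 whose groups also did not overlap after quantile normalization and after scaling by library medians. Without KO 0 its log2 fold change was -0.93, and without WT 1 and KO 2 together it was -0.87.

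**Figure D2:**
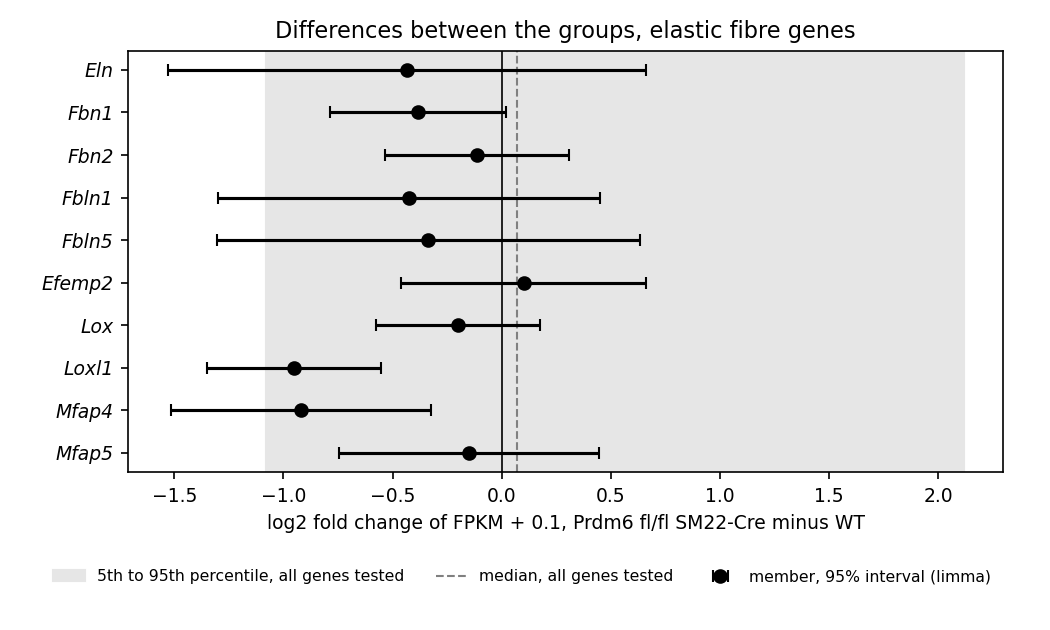
Log2 fold change of FPKM + 0.1 (KO minus WT, horizontal axis) for each of the 10 genes, with its 95% interval from limma (3 libraries per group). The grey band is the 5th to 95th percentile of all genes tested (-1.08 to 2.12) and the dashed line their median (0.07), and only the intervals of *Loxl1* and *Mfap4* lie wholly under 0, before any adjustment.

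Ratios between genes of the same library do not depend on how the libraries were scaled to each other. There were 1.79 to 2.04 *Lox* FPKM for each *Loxl1* FPKM in WT and 3.16 to 3.40 in KO. The groups did not overlap, and the mean log2 ratio was 0.96 ± 0.10 in WT and 1.71 ± 0.05 in KO (SD, n = 3). The difference of 0.75 had the smallest exact permutation p that this design allows (0.1, and 0.5 adjusted over the 5 ratios computed). The *Mfap5* to *Mfap4* log2 ratio was -1.76, -2.58 and -1.69 in WT and -1.83, -1.04 and -0.84 in KO. KO 0 lay inside the WT range, and the exact permutation p of the difference of 0.77 was 0.3 (adjusted 0.5). Without WT 1 and KO 2 together that difference was 0.29. The *Fbn2* to *Fbn1* log2 ratio differed by 0.27 (exact permutation p = 0.3, adjusted 0.5) with overlapping groups.

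The amount of tropoelastin transcript relative to its scaffold did not separate the groups. *Eln* to *Fbn1* stood at 12.6, 8.86 and 9.15 in WT and at 13.6, 12.0 and 5.64 in KO. The KO libraries held the highest and the lowest value, and the mean log2 ratio differed by -0.05 (exact permutation p = 0.9, adjusted 0.9). *Fbln5* to *Efemp2* was 8.37 to 19.6 in WT and 13.8 to 15.7 in KO 0 and KO 1, and 4.62 in KO 2, with a difference in mean log2 ratio of -0.44 (exact permutation p = 0.6, adjusted 0.75). Without KO 2 these differences were 0.34 and 0.12, both above 0.

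**Figure D3:**
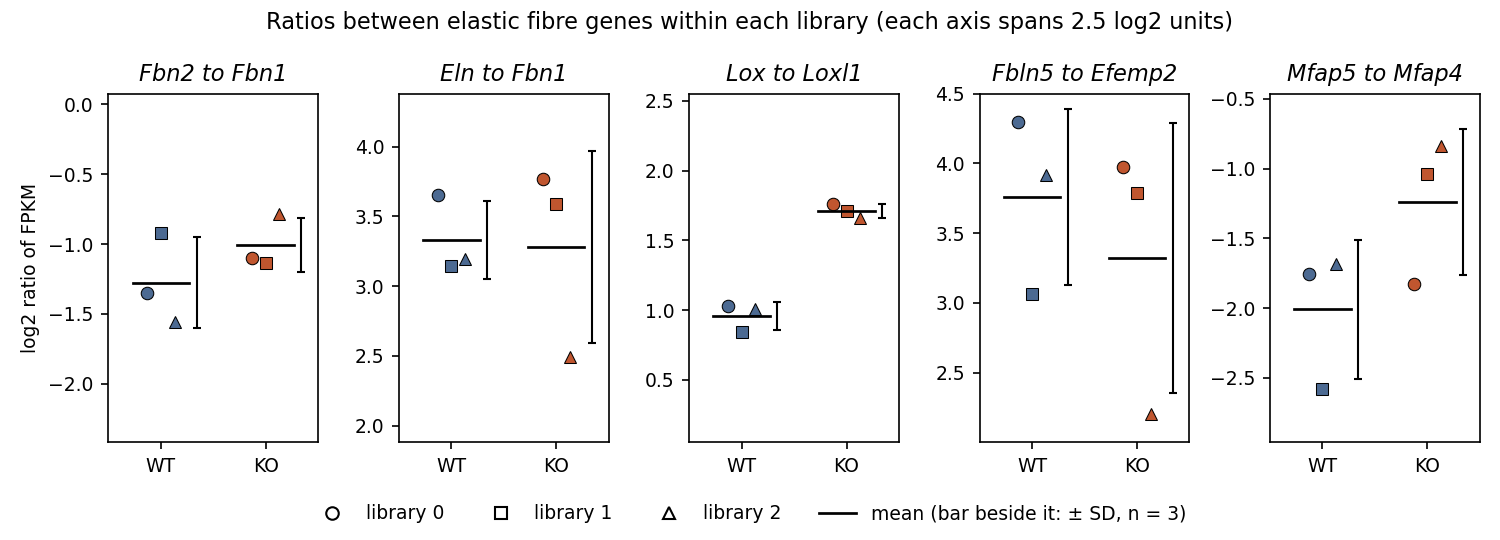
Log2 ratio of FPKM between pairs of elastic fibre genes within each library (vertical axes, each spanning 2.5 log2 units), with a line for the mean and a bar for the SD (n = 3). The *Lox* to *Loxl1* ratio alone separated the groups, at 0.84 to 1.03 in WT and 1.66 to 1.76 in KO.

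Over the 6 libraries, *Fbln5* followed *Eln* closely (Pearson r = 0.953 of log2 values, rank 16 among 3505 genes with a mean of at least 20 FPKM). *Fbn1* (r = 0.742), *Mfap4* (0.609) and *Lox* (0.537) came next, and *Loxl1* reached 0.386. For *Fbln1* (-0.372), *Efemp2* (-0.505) and *Fbn2* (-0.017) r was below 0, and whether any r differed from 0 was not tested. *Loxl1* was closest to *Mfap4* (r = 0.893) among the 10. The genes most like *Eln* were *Fblim1* (r = 0.992), *Atp6v1g1* (0.981), *Synpo* (0.979), *Cav1* (0.974) and *Mir143hg* (0.974). *Fblim1* codes for a filamin-binding adhesion protein, *Synpo* for an actin-associated protein and *Cav1* for the coat protein of caveolae. *Fblim1* was at 92.1, 57.8 and 73.8 FPKM in WT and at 69.8, 80.1 and 23.6 FPKM in KO. Like *Eln*, it was highest in WT 0 and lowest in KO 2. These correlations describe 6 points that share library and tissue composition, with WT 0 and KO 2 at the ends of the *Eln* range.

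Marker transcripts of several cell types moved with some of these patterns. The summed FPKM of 10 smooth muscle markers (*Acta2*, *Myh11*, *Tagln*, *Cnn1* and others) was 2534 to 5819.9 in WT and 906 to 2455 in KO. All 10 had a log2 fold change below 0 (median -1.35), and the groups of 6 did not overlap (7.84% of all genes were lower with no overlap). KO 2, lowest in *Eln*, *Fbln5* and *Mfap4*, was also lowest in smooth muscle markers, and WT 0 was highest in all of these. *Mfap4* followed the smooth muscle sum in rank through all 6 libraries, which *Eln* did not. Within KO, the smooth muscle sum ranged from 906 to 2455 FPKM and *Eln* from 1464.5 to 4149.95 FPKM. *Loxl1* was between 46.1 and 49.0 FPKM there, and *Lox* between 150.4 and 160.2 FPKM. Within WT, WT 2 was lowest in the smooth muscle sum (2534 FPKM), in *Loxl1* (76.4 FPKM) and in *Lox* (153 FPKM). The highest WT library was WT 0 for the sum and *Lox*, and WT 1 for *Loxl1*. Whether *Loxl1* or *Lox* follows smooth muscle content was not tested. In bulk tissue, fewer cells of a type and less RNA per cell cannot be told apart.

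Markers of other cells were present as well. The 8 Schwann cell markers summed to 12.7 to 35.2 FPKM in WT and 46.1 to 170.3 in KO, and 4 of them were higher in every KO library than in any WT library (8.21% of all genes were). The 8 neuron markers summed to 8.05 to 23.1 FPKM in WT and 40.6 to 60.5 in KO, with 3 of 6 tested not overlapping. The 10 heart muscle markers summed to 1285 FPKM in WT 1 and 1408 FPKM in KO 2, against 55.5 to 386 FPKM in the other 4 libraries. Without WT 1 and KO 2, the log2 fold change was -0.08 for *Eln*, -0.04 for *Fbln5*, -0.33 for *Fbn1* and -0.70 for *Mfap4*. It was 0.0079 for *Fbn2*, -0.15 for *Lox* and -0.87 for *Loxl1*. For *Fbln1* (-0.44), *Mfap5* (-0.41) and *Efemp2* (0.19) it was larger in size than with all libraries. The fibroblast list, whose cells also make microfibrils, summed to 701 to 1199 FPKM in WT and 765 to 994 in KO, inside the WT range, but its genes went both ways. Of its 10 genes, 7 had a log2 fold change below 0 (median -0.38), and *Pi16* was at -1.85 with no overlap while *Lum* was at 1.16, higher in every KO library than in any WT library. The erythroid list (9 genes in the table, *Hba-a2* at 0 in every library) summed to 3865 to 7584 FPKM in WT and 4287 to 24362 in KO, the endothelial list to 319 to 463 and 401 to 589, the macrophage list to 38.0 to 155 and 32.1 to 116, the epithelial or mesothelial list to 56.6 to 177 and 59.1 to 135, and the cartilage list (*Matn1* at 0 in every library) to 30.6 to 46.3 and 36.6 to 51.1. The part of these differences in the results above was not tested.

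**Figure D4:**
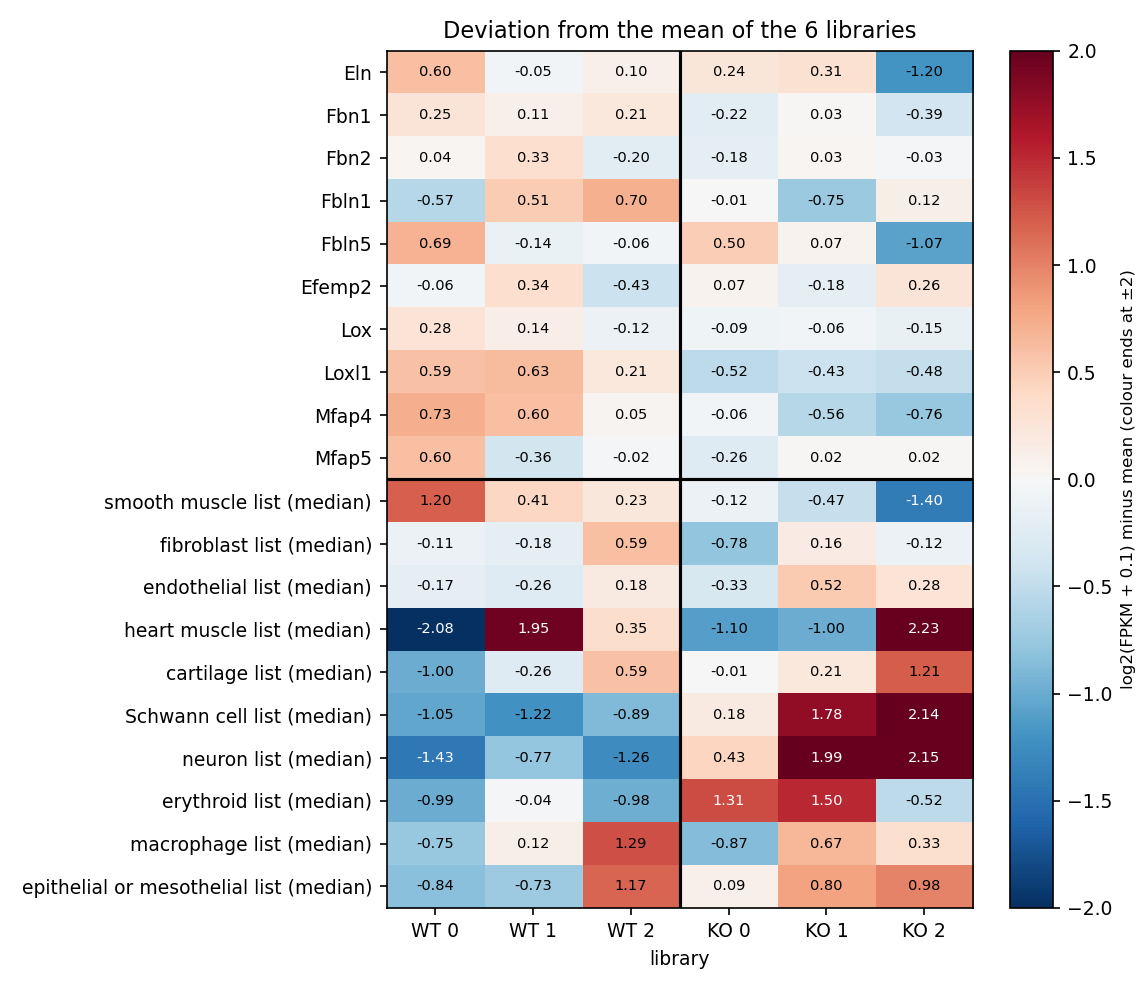
Deviation of log2(FPKM + 0.1) from the mean of the 6 libraries for each elastic fibre gene (upper rows) and the median over each marker list (lower rows), with libraries in columns, red above and blue below the mean. KO 2 was at -1.20 for *Eln*, -1.07 for *Fbln5* and -1.40 for the smooth muscle list, while *Loxl1* was at -0.43 to -0.52 in all 3 KO libraries.

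Further genes of elastic fibre assembly were read from lists set out by function, 54 in the table and 48 of them with a mean of at least 1 FPKM. None passed the test (limma, adjusted p under 0.05), 5 were lower and 0 higher at an unadjusted p under 0.05 (4.97% and 3.31% of all genes tested), and 8 were lower and 0 higher with no overlap between groups (7.84% and 8.21% of all genes). The log2 fold change was below 0 for 30 of the 48, against 44.4% of all genes, with a median of -0.16. Latent TGF-beta binding proteins (LTBPs) sit on fibrillin microfibrils, and all 4 had a log2 fold change below 0 (median -0.39). *Ltbp2*, whose product binds fibrillin-1, was at 62.1, 58.5 and 43.0 FPKM in WT and at 35.8, 29.2 and 16.9 FPKM in KO. Its groups did not overlap, with a log2 fold change of -1.04 (SE 0.30, unadjusted p = 0.00936, adjusted p = 0.524, limma). *Ltbp1* was at -0.49 with overlapping groups. Without WT 1 and KO 2 together, *Ltbp2* was at -0.67 and *Ltbp1* at -0.12.

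Of 14 other microfibril-associated genes tested, 9 had a log2 fold change below 0 (44.4% of all genes did), and 3 (*Mfap2*, *Adamtsl4* and *Adamtsl5*, named after their values were seen) were lower with no overlap (7.84% of all genes). *Adamtsl4* nearly overlapped, with a lowest WT value of 9.21 and a highest KO value of 9.11 FPKM (log2 fold change -0.46, unadjusted p = 0.159, limma). *Adamtsl5* was low, at 4.48 to 5.86 FPKM in WT and 1.97 to 2.92 FPKM in KO (-0.98, unadjusted p = 0.0679, limma). *Mfap2* encodes MAGP-1, the closest relative of the *Mfap5* product. It was at 79.5, 101 and 145 FPKM in WT and at 52.9, 57.8 and 45.01 FPKM in KO. The log2 fold change of *Mfap2* was -1.02 (SE 0.24, unadjusted p = 0.00319, adjusted p = 0.462, limma), and that of *Mfap5* was -0.15. The largest values of the list by size were those of *Adamtsl2* (-2.15, SE 1.04, adjusted p = 0.624) and *Mmrn1* (1.38, SE 1.12, adjusted p = 0.726), in each case with overlapping groups and a large error.

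In the other lists, 1 of 3 TGF-beta ligands, 1 of 4 elastolytic enzymes and 1 of 5 protease inhibitors tested were lower with no overlap. So was 1 of 11 processing and trafficking genes, and none of the other lysyl oxidases or other fibulins. Of all genes tested, 7.84% were lower with no overlap. Among TGF-beta ligands, which stimulate elastin synthesis, *Tgfb2* was at 55.7, 60.7 and 51.5 FPKM in WT and at 44.9, 26.3 and 24.0 FPKM in KO. Its groups did not overlap (log2 fold change -0.87, SE 0.26, unadjusted p = 0.0104, adjusted p = 0.535, limma), and *Tgfb3* was at -0.47 with overlap and at -0.19 without WT 1 and KO 2. Of the elastolytic enzymes, *Mmp2*, a gelatinase, was at 135, 122 and 163 FPKM in WT and at 64.1, 118 and 88.9 FPKM in KO. The KO values of *Mmp2* all lay under the WT range (log2 fold change -0.67, SE 0.25, unadjusted p = 0.0278, adjusted p = 0.574, limma), and *Ctss*, the cysteine protease cathepsin S, was at 0.98 with overlap. *Mmp7* was listed at 0 in every library, and *Mmp9*, *Mmp12* and *Elane* were under the filter.

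The 5 protease inhibitors tested had a median of 0.51, and *Timp2*, chosen after its values were seen, was the gene among them lower with no overlap (-0.38, unadjusted p = 0.0371, adjusted p = 0.591, limma). *Timp1* (1.58) and *Timp4* (0.76) were listed at 0 in WT 2, and without WT 2 their log2 fold changes were -0.72 and -0.97. The other lysyl oxidases had a median of -0.06, with *Loxl4* at -0.34 and *Loxl3* at 0.22. Their groups overlapped, as did those of the 4 other fibulins tested (median 0.32), led by *Fbln7* (0.73) and *Efemp1* (0.69). The 11 processing and trafficking genes include some whose products fold or cleave matrix proteins or supply copper or proline. Of the 11, 1 (*Aldh18a1*, named after its values were seen) was lower with no overlap, a share near the 7.84% of all genes. The median of this list was -0.15. The largest values by size there were *Tll1*, a procollagen and pro-lysyl oxidase protease (1.26), and *Atp6v0a2*, a proton pump subunit (-0.48), with adjusted p = 0.741 and 0.632 (limma).

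**Figure D5:**
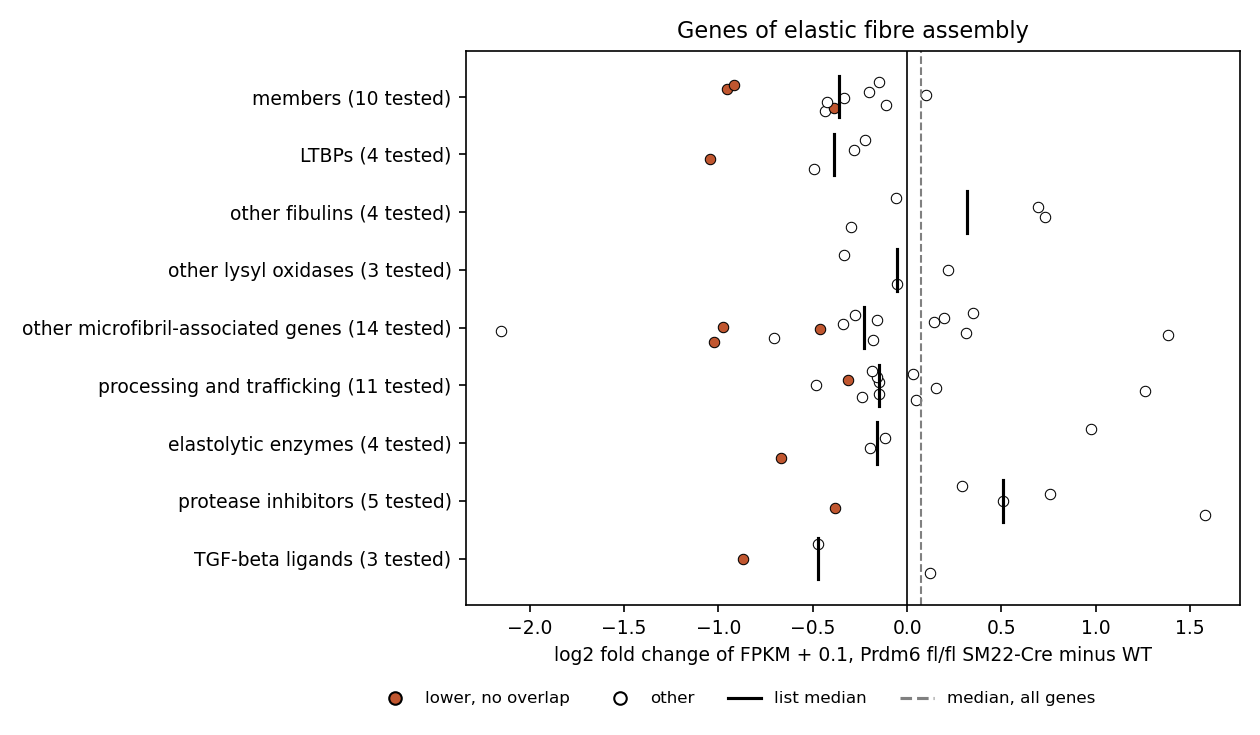
Log2 fold change of FPKM + 0.1 (KO minus WT, horizontal axis) of the 10 elastic fibre genes and of 48 further genes of elastic fibre assembly by list. Filled points are genes lower in every KO library than in any WT library (3 of the 10 and 8 of the 48), black lines are list medians, and the dashed line is the median of all genes tested (0.07).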

How the data were processed

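Bulk RNA-Seq values of 6 DA libraries (3 WT, 3 KO) were analysed, fewer per group than the n that the study's figure legend gives for its bulk RNA-Seq. Per the study's methods, the authors trimmed reads to a base quality of Q30 and a length of at least 45 bases, aligned them to mm10 with TopHat2 and obtained gene values with Cufflinks. The authors analysed those values further with Cuffdiff and R, so their test differs from the limma test used here. The deposited table holds FPKM per gene and library. Versions, the annotation, strandedness and any scaling between libraries were not given in the sources used here. FPKM are not counts, so no count test was run, and the depth is known only as a ratio between libraries.

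Genes with a mean of at least 1 FPKM over the 6 libraries (12955 of 23997) were tested with limma 3.58.1 (R 4.3.3) on log2(FPKM + 0.1), with group as the only term, a mean-variance trend, two-sided tests and Benjamini-Hochberg adjustment over all genes tested (threshold 0.05). Fold changes are on that scale and understate those of low genes. Single genes and 5 within-library ratios were also compared by two-sided exact permutation tests. The fit was run on simulated data with changes far larger than those of the 10 genes. That run does not show how the fit performs at changes of their size. Groups came from the labels. Coordinates are those of GENCODE vM21 (GRCm38). Named were the 10 genes, of each further list the 2 tested genes with the largest absolute log2 fold change, *Prdm6*, the markers, and the 5 genes with a mean of at least 20 FPKM most correlated with *Eln*. The 10 genes, the lists and the tests were chosen with earlier results of these data known. Alternatives changed the pseudocount, the filter, the scaling, the limma settings and the libraries used.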

Additional observations from a re-analysis of the deposited data

How the results depend on the processing

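The count of elastic fibre genes past the threshold was 0 in each of 17 alternatives, as was that of the further assembly genes, and 8 to 10 of the 10 genes had a log2 fold change below 0. *Loxl1* ranged from -1.09 to -0.82 (adjusted p 0.273 to 0.871, limma), *Mfap4* from -1.12 to -0.69 (0.313 to 0.871) and *Fbn1* from -0.49 to -0.18 (0.518 to 0.871). The number of genes lower with no overlap was 1, *Loxl1*, after quantile normalization (7.89% of all genes) and 1, again *Loxl1*, after scaling by library medians (5.63%), shares of the 10 near those of all genes. It was 3 to 5 with a library left out (11.3% to 13.6% of all genes) and 5 without WT 2, which added *Fbn2* and *Lox* (13.1%). The median log2 fold change of the 10 was -0.45 to -0.18 with a library left out, with -0.18 both without WT 0 and without KO 2. Scaling by library medians moved the median of all genes from 0.07 to 0.18, and relative to the median of all genes in the fit reported, *Loxl1* was at -1.02, an alternative chosen after seeing the data.

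Some signs turned. With a library left out, log2 fold changes spanned -0.70 to 0.055 for *Eln*, -0.24 to 0.023 for *Fbn2*, -0.67 to 0.11 for *Fbln5*, -0.089 to 0.29 for *Efemp2*, -0.37 to 0.12 for *Mfap5*, -0.053 to 0.41 for *Loxl3*, -0.078 to 2.38 for *Tll1*, -0.72 to 2.75 for *Timp1* and -0.97 to 2.14 for *Timp4*, and the difference in log2 ratio from -0.29 to 0.34 for *Eln* to *Fbn1* and -0.78 to 0.12 for *Fbln5* to *Efemp2*. Without KO 2, *Eln* was at 0.055, *Fbln5* at 0.11, *Efemp2* at -0.0064, and the log2 ratios of *Eln* to *Fbn1* and *Fbln5* to *Efemp2* differed by 0.34 and 0.12. Without WT 0, *Mfap5* was at 0.12, *Loxl3* at -0.053, *Tll1* at -0.078 and the *Eln* to *Fbn1* difference at 0.11. *Fbn2* was at 0.023 without WT 1 and at 0.053 after quantile normalization. Without WT 2, *Efemp2* was at -0.089, *Timp1* at -0.72 and *Timp4* at -0.97, and *Timp4* was at -0.023 with a pseudocount of 1 and at -0.47 after quantile normalization. Without the 2 libraries highest in heart muscle transcripts, *Fbn2* was at 0.0079, *Efemp1* at -0.11 and the *Eln* to *Fbn1* difference at 0.25. The cause was not tested.

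WT and KO libraries share the numbers 0, 1 and 2. Correlations of the deviations of same-numbered libraries were 0.122, -0.076 and -0.0088, so the numbers were not taken to pair samples. With a replicate block, *Loxl1* and *Mfap4* kept their log2 fold changes of -0.95 and -0.92 with adjusted p = 0.313 for each (limma), and 0 of the 10 genes passed. The number of libraries and the unknown absolute depth limit the precision.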
